A study of Mus musculus with 90 samples.

Results

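The 203 protein-coding Vmn1r genes of the mouse were examined in embryonic stem cells (ESCs) for peaks of H3K9me3, Trim28 and Uhrf1 and for regions that gain DNA methylation through Dnmt1. They were taken by name from the GENCODE vM1 annotation of mm9, as every gene of the protein_coding biotype whose symbol begins with Vmn1r, and were 203 of 22367 protein-coding genes. They carry 202 distinct symbols, since Vmn1r63 has 2 overlapping entries on chromosome 7, counted as 2 members. A further 54 annotated Vmn1r genes of other biotypes were left out. The median gene body was 930 bp long (range 888 to 200677 bp), and only 9 bodies were longer than 3100 bp. Each gene was read as its window, the body with 10 kb on either side.

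Vmn1r genes encode receptors for pheromones and other chemical cues, seven-transmembrane proteins of the sensory neurons in the apical layer of the vomeronasal organ. Each neuron expresses a single receptor gene or very few, and the coding sequence lies in a single exon. The genes stand in tandem arrays that grew by duplication, in neighbourhoods rich in transposable elements, and they are silent outside the olfactory system. H3K9me3 is the histone mark of constitutive heterochromatin. Trim28 (Kap1) is the corepressor that KRAB zinc-finger proteins bring to transposable elements and that recruits the H3K9 methyltransferase Setdb1. Uhrf1 binds H3K9me3 and hemimethylated CpGs and brings Dnmt1, the maintenance DNA methyltransferase, to chromatin.

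The study asked whether Dnmt1 can set new methylation without the de novo enzymes Dnmt3a and Dnmt3b, and where it does so. TKOL cells were J1 ESCs without catalytically active Dnmt3a and Dnmt3b, in which a Cre-excisable shRNA also depletes Dnmt1. They form a clonal line with little DNA methylation. DKO0 cells were derived from TKOL by removal of the shRNA, so they share both Dnmt3 mutations and have regained Dnmt1. WT cells were V65 ESCs with neither the mutations nor the shRNA, so genotype and strain cannot be told apart in any comparison with WT. Uhrf1 was read through a FLAG tag on the endogenous gene in each line, whereas the H3K9me3 and Trim28 samples are labelled without a tag. The labels have all ESCs growing on CD1 feeder fibroblasts, and the peak lists hold no value that separates feeder from ESC chromatin.

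For each of 3 marks there were 2 replicate peak lists in each of 3 lines, hence 18 single-replicate lists. A further 6 lists had been called on the pooled reads of the TKOL or DKO0 replicates. The lists carry no read number, so depth is unknown and a gene without a peak is a gene without a call. Single-replicate lists held 25953 to 63579 peaks for H3K9me3, 15995 to 31921 for Trim28 and 11440 to 49156 for Uhrf1. Pooled lists were larger for H3K9me3 (104618 in TKOL, 92462 in DKO0) and Trim28 (56161, 62621), and held 40754 and 30516 peaks for Uhrf1. Nothing in the labels ties a replicate to a separate culture, so p-values measure only the spread between lists, which may be technical. Peak names in the first TKOL list of Trim28 carry another prefix than those of the other lists. The names of the single-replicate DKO0 lists give another passage for Uhrf1 than for H3K9me3 and Trim28.

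A few stretches that recurred in several lists are printed as examples of sequence under peaks near these genes, and they need not be typical of the other peaks. Sequences are from mm9, on the plus strand. The stretch shared most near Vmn1r2, at chr4:3104000-3104089, lay in 6 H3K9me3 lists and 4 Trim28 lists. Capitals mark its longest run that repeats at a distance of 22 bp.

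Vmn1r2: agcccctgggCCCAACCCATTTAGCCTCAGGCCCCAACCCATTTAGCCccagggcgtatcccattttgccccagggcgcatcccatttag

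The stretch with the most lists of all lay 9017 bp upstream of Vmn1r193, at chr13:22320707-22320781, in 14 of 18 single-replicate lists (6 of H3K9me3, 6 of Trim28, 2 of Uhrf1). It holds no CpG. The other pair are Uhrf1 stretches. The one near Vmn1r47 at chr6:89977566-89977679 lay in 5 of 6 Uhrf1 lists, the most of any, and the one near Vmn1r60 at chr7:5492239-5492461 was the longest of those in 4. In these, capitals mark CpGs, the sites that Dnmt1 can methylate.

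Vmn1r193: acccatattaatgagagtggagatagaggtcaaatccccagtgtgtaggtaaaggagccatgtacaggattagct
Vmn1r47: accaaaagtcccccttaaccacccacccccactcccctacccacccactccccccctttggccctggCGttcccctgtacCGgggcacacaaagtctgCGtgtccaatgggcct
Vmn1r60: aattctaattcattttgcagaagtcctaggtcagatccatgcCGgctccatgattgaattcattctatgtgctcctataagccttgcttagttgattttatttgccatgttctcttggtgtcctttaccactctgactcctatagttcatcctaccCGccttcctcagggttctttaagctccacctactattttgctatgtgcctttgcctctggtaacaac

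These 4 stretches differ in how often their sequence occurs in the genome. The median 31-bp word of the Vmn1r193 stretch has 1598 copies in mm9 and that of the Vmn1r47 stretch 3178. The value was 9.5 for Vmn1r2 and a single copy for Vmn1r60. A class of transposable element is not given, because no repeat annotation of mm9 was used here.

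Of the 203 Vmn1r genes, 120 had an H3K9me3 peak in the window in the pooled TKOL list, which is 59.1% (95% Wilson interval 52.2% to 65.6%). In the pooled DKO0 list 119 did, or 58.6% (51.7% to 65.2%). Over all protein-coding genes the percentages were 39.3% and 39.8%, and over other genes matched on length 38.5% and 35.7%. Trim28 peaks stood in 54 windows in TKOL (26.6%, 21.0% to 33.1%) and 53 in DKO0 (26.1%, 20.5% to 32.6%), beside 36.7% and 35.2% of all genes and 22.9% and 23.5% of matched genes. Uhrf1 was the least frequent, with 41 windows in TKOL (20.2%, 15.3% to 26.2%) and 30 in DKO0 (14.8%, 10.6% to 20.3%), beside 38% and 41.2% of all genes and 22.6% and 18.2% of matched genes. In the pooled lists, Vmn1r windows thus held H3K9me3 more often than matched windows and Trim28 and Uhrf1 at about their frequency. These intervals cover counting error only, and 45 windows overlap that of another Vmn1r gene, so a peak can be counted for more than 1 gene.

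The larger share of H3K9me3 in the pooled lists was not found across the single-replicate lists. In WT, 35 and 32 Vmn1r genes had an H3K9me3 peak (17.2% and 15.8%, with 23% and 19% of all genes). In TKOL the numbers were 74 and 40 (36.5% and 19.7%, with 33.2% and 24.6% of all genes). In DKO0 they were 93 and 44 (45.8% and 21.7%, with 40.6% and 26.7% of all genes). The first replicates of TKOL and DKO0 stood high and the other 4 lists lay between 15.8% and 21.7%, and those 2 lists are also the largest, with 55126 and 63579 peaks against 25953 to 37315. Length-matched genes gave 17.0% and 16.1% in WT, 27.8% and 20.5% in TKOL, and 31.8% and 21.4% in DKO0. The difference from matched genes was +3.66 ± 6.17 percentage points (SD, n = 6 lists) and was positive in 4 of 6 lists. An exact two-sided permutation test that flips signs within lists gave p = 0.375 (adjusted p = 0.375 over the 3 marks). When each list was limited to its 25953 peaks of lowest p-value, Vmn1r shares fell between 13.8% and 16.3% and the difference from matched genes was −0.66 points. It was +4.22 points against matched genes that are not chemoreceptors, with a positive sign in 6 of 6 lists (exact permutation p = 0.0312, adjusted p = 0.0469). Against genes matched on length and CpG density it was +5.45 points, also positive in 6 of 6 lists (exact permutation p = 0.0312, adjusted p = 0.0938). Olfr genes make up 61.6% of the matched genes on average.

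**Figure D1:**
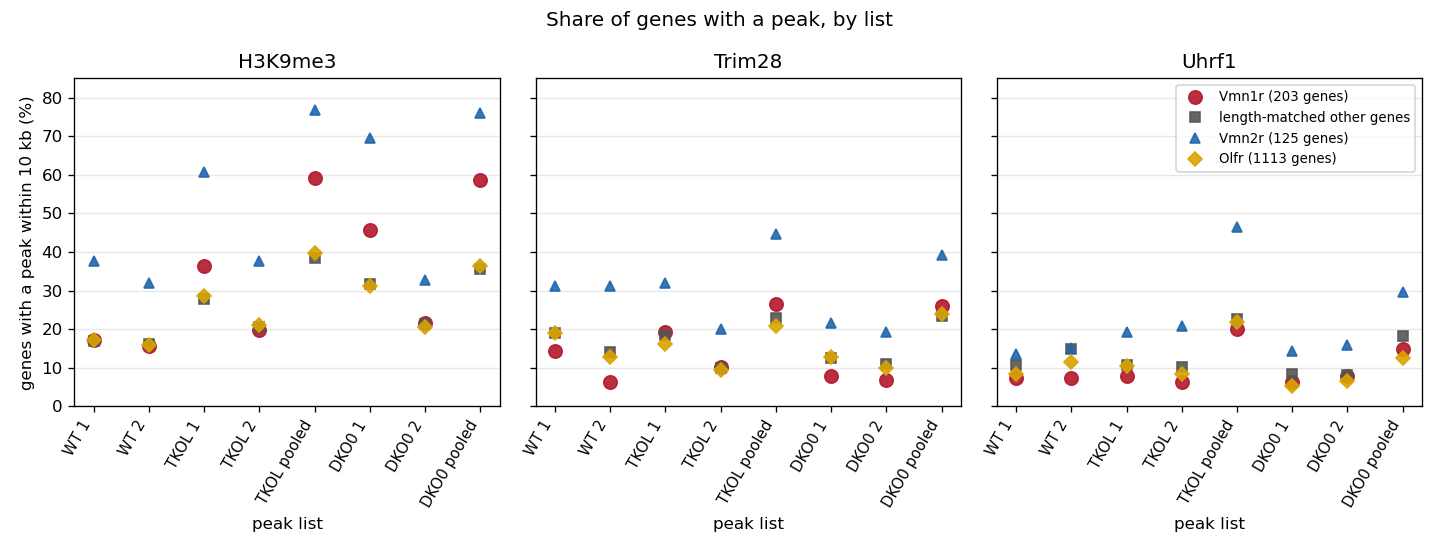
Percent of genes with a peak within 10 kb of the body in each of the 24 lists, for Vmn1r genes, length-matched other genes, Vmn2r genes and Olfr genes, with a panel for each mark. Vmn1r genes reach 59.1% in the pooled TKOL list of H3K9me3 and stay between 6.40% and 7.88% in the 6 single-replicate lists of Uhrf1.

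Trim28 peaks stood near fewer Vmn1r genes than H3K9me3 peaks did in each line. In WT there were 29 and 13 genes (14.3% and 6.40%, with 27.3% and 24.2% of all genes), and in TKOL 39 and 21 (19.2% and 10.3%, with 30.3% and 17.5%). In DKO0 there were 16 and 14 (7.88% and 6.90%, with 19.8% and 16.8%). Both TKOL lists stood at or just above the matched genes (18.5% and 10.1%), and the lists of WT and of DKO0 (12.5% and 11.1%) stood below them. Over the 6 lists the difference was −3.39 ± 3.26 points (SD, n = 6), with p = 0.125 in the exact permutation test (adjusted p = 0.188).

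Uhrf1 was found near 13 to 16 Vmn1r genes in each of its 6 single-replicate lists. The WT lists gave 15 and 15 genes (7.39% in both, with 26.5% and 36.8% of all genes). In TKOL there were 16 and 13 (7.88% and 6.40%, with 18.6% and 24.8%), and in DKO0 13 and 16 (6.40% and 7.88%, with 21.2% and 17.5%). Matched genes lay higher in all 6 lists, at 10.8% and 15.0% in WT, 10.8% and 10.4% in TKOL, and 8.54% and 8.16% in DKO0. The difference was −3.39 ± 2.43 points (SD, n = 6). Its exact permutation p of 0.0312 is the smallest that 6 lists can give, and the adjusted p over the 3 marks was 0.0938. CpG density differed as well, with a median of 4.83 CpGs per kb in Vmn1r windows against a mean of 7.24 in those of length-matched genes and a median of 11.4 over other protein-coding genes. Against genes matched on length and CpG density the Uhrf1 difference was −0.61 ± 1.83 points (SD, n = 6, exact permutation p = 0.5), and Vmn1r genes were lower in 3 of 6 lists.

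No difference between lines passed the test in any mark, and with 2 lists against 2 the exact permutation test cannot give a p below 0.333. For H3K9me3, DKO0 minus TKOL was +5.67 points (exact permutation p = 0.667) and WT minus TKOL was −11.6 points (p = 0.333). For Trim28 the same differences were −7.39 points (exact permutation p = 0.333) and −4.43 points (p = 0.667). For Uhrf1 they were 0 and 0.25 points (exact permutation p = 1 for each), so the mean count was equal in DKO0 and TKOL. All 6 adjusted p-values of these exact permutation tests were 1. Replicates of a line differed by up to 24.1 points, in H3K9me3 of DKO0. At equal numbers of peaks the H3K9me3 difference between DKO0 and TKOL was −0.25 points.

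Gene by gene, the pooled lists of TKOL and DKO0 were set side by side for each mark. For H3K9me3, a peak stood in both at 105 genes, in TKOL alone at 15, in DKO0 alone at 14 and in neither at 69. For Trim28 the numbers were 40, 14, 13 and 136, and for Uhrf1 20, 21, 10 and 152. The same classes were not counted over matched genes or all genes, so these numbers are not read as a trait of Vmn1r genes. Few Vmn1r genes had the same call in both replicates of a line and none in the other line. For H3K9me3, 1 gene (Vmn1r112) had a peak in both DKO0 lists and neither TKOL list, where 1.5% of all genes do, and 2 (Vmn1r58 and Vmn1r142) had the reverse, where 0.434% do. For Trim28 these were 1 gene (Vmn1r130, with 0.787% of all genes) and 3 genes (Vmn1r48, Vmn1r142 and Vmn1r219, with 2.2%). For Uhrf1 there was no gene with a peak in DKO0 only (0.966% of all genes) and 1 with a peak in TKOL only (Vmn1r3, with 1.96%).

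In every case but Vmn1r58, the pooled list of the other line held a peak of that mark in the window. Vmn1r112, a gene with a long body, had an H3K9me3 peak at the same place in both DKO0 lists, with folds over background of 2.99 and 4.29. The pooled TKOL list had a peak of fold 2.79 elsewhere in that body. Vmn1r58, by contrast, had H3K9me3 folds of 3.13 and 3.18 in TKOL and 2.94 in pooled TKOL, 3.47 in the first WT list, and no peak in any DKO0 list. Vmn1r3 had Uhrf1 folds of 3.44 and 2.88 in WT and 3.13 and 2.71 in TKOL. It had no single-replicate Uhrf1 peak in DKO0, but the pooled DKO0 list held a peak of fold 2.34 at the same place.

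Among the combinations of marks, H3K9me3 alone was the most frequent. In pooled TKOL, H3K9me3 stood alone at 56 genes (27.6%, against 15.2% of matched genes) and in pooled DKO0 at 60 (29.6% against 16.1%). It stood with Trim28 and without Uhrf1 at 34 and 35 genes (16.7% and 17.2%, against 11.2% and 10.3% of matched genes), and with Uhrf1 and without Trim28 at 13 and 11 (6.40% and 5.42%, against 4.26% and 3.51%). All 3 marks met at 17 genes in TKOL (8.37% against 7.87%) and 13 in DKO0 (6.40% against 5.76%). Trim28 without H3K9me3 or Uhrf1 was found at 3 and 4 genes (1.48% and 1.97%, against 3.33% and 5.83%), and Uhrf1 alone at 11 and 5 (5.42% and 2.46%, against 9.95% and 7.34%). Of the 120 genes with H3K9me3 in TKOL, 51 also had Trim28 (42.5%), and matched genes with H3K9me3 had it in 49.5%. In DKO0 these were 48 of 119 genes (40.3%) and 45.0%.

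Peaks of all 3 marks in both pooled lists were found at 9 genes, 4.43% of the family, where the matched share was 4.31% and the share of all genes 10.1%. They were Vmn1r3, Vmn1r47, Vmn1r48, Vmn1r53, Vmn1r60, Vmn1r101, Vmn1r149, Vmn1r205 and Vmn1r234. H3K9me3 in all 6 single-replicate lists marked 11 genes, 5.42% against 7.80% of matched genes and 10.9% of all genes. These were Vmn1r2, Vmn1r3, Vmn1r45, Vmn1r56, Vmn1r66, Vmn1r101, Vmn1r149, Vmn1r193, Vmn1r205, Vmn1r219 and Vmn1r238. At the other end, 79 Vmn1r genes had H3K9me3 in none of these 6 lists (38.9%, against 54.2% of matched and 45.1% of all genes). Trim28 was in none for 134 (66.0%, against 61.8% and 42.4%) and Uhrf1 for 151 (74.4%, against 68.1% and 40%). No peak of any mark in any of the 24 lists was found for 44 genes, 21.7% against 27.8% of matched genes and 11.4% of all genes. Vmn1r12, Vmn1r25, Vmn1r50, Vmn1r64 and Vmn1r67 are the first 5 of them in genome order.

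In the pooled lists, H3K9me3 covered a larger share of the flanks of Vmn1r genes than of their bodies, as it did at matched genes. Pooled H3K9me3 peaks touched the body of 13 of the 203 Vmn1r genes in TKOL and 7 in DKO0, against 3.49% and 3.73% of length-matched bodies. The Vmn1r share was thus above the matched share in TKOL and below it in DKO0. Of all protein-coding genes, most of them much longer, 21.3% and 21.2% had a peak in the body. Trim28 peaks touched 1 body in TKOL and none in DKO0 (3.09% and 1.54% of matched genes, 21.5% and 19.7% of all), and Uhrf1 peaks 2 and none (1.55% and 2.63%, 21.9% and 24.1%). A count of 0 of 203 allows a share of up to 1.48%. In the single-replicate lists, H3K9me3 peaks touched 0 to 4 Vmn1r bodies, and each share (0% to 1.97%) lay below the matched share of its list. Per base, H3K9me3 covered 1.01% of the bodies in pooled TKOL and 0.79% of the nearest kb, against a mean of 4.40% over the 10-kb flanks. In DKO0 the body had 0.57%, the nearest kb 1.32% and the flanks 5.19%. Matched genes had 0.91% and 1.19% in the body and 3.05% and 3.55% in the flanks. In both pooled lists the flanks of Vmn1r genes were covered more than matched flanks. In the single-replicate lists this was so in 1 of 6, the first of DKO0 (1.41% against 1.19%), and the other 5 had 0.276% to 0.808% against 0.346% to 0.810%.

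**Figure D2:**
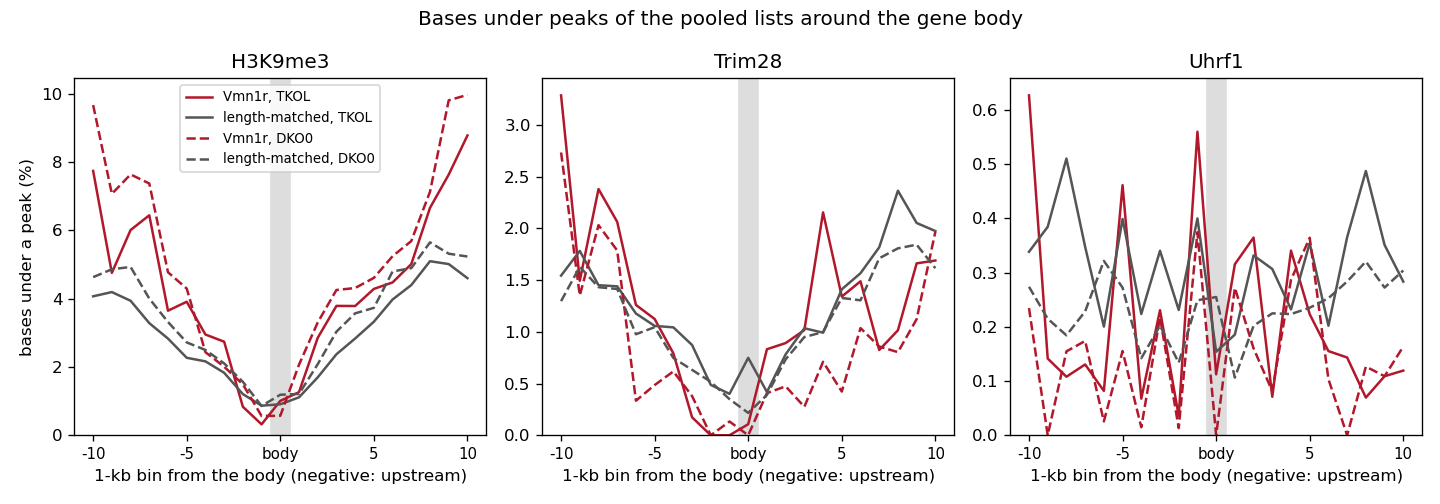
Percent of bases covered by peaks of the pooled lists along the gene body and in bins of the 10-kb flanks, in the direction of transcription, for Vmn1r genes and length-matched genes in TKOL (solid) and DKO0 (dashed), with the body shaded and a separate scale for each mark. H3K9me3 at Vmn1r genes runs from a lowest bin of 0.32% in TKOL and 0.57% in DKO0 to highest bins of 8.78% and 9.97%.

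The comparison with matched genes changed with the width of the window. With the body alone, the H3K9me3 difference over the 6 single-replicate lists was −0.66 points. With 25 kb on either side it was +15.8 ± 6.66 points (SD, n = 6) and positive in 6 of 6 lists (exact permutation p = 0.0312, adjusted p = 0.0469). Vmn1r shares were then 50.2% and 48.8% in WT, 77.8% and 53.7% in TKOL, and 86.7% and 61.6% in DKO0, against 37.7% to 60.9% of matched genes. Wider windows also overlap more within an array, so the genes share more of their peaks.

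The strength of peaks in the Vmn1r windows was set beside that of peaks elsewhere. The pooled lists placed 350 H3K9me3 peaks there in TKOL and 281 in DKO0, with a median fold of 2.85 and 2.59 against 2.90 and 2.64 elsewhere. A −log10 q of at least 5 was reached by 34 of the 350 (9.71%) and 39 of the 281 (13.9%), against 11.9% and 16.1% elsewhere. For Trim28 the shares were 10.6% and 11.4%, against 15.9% and 19.7% elsewhere, and for Uhrf1 4% and 8.82%, against 8.81% and 8.80%. The single-replicate lists went in both directions. For H3K9me3 they gave 10% and 10.9% in WT, against 5.22% and 5.79% elsewhere. In TKOL they gave 9.40% and 3.77% against 7.72% and 5.97%, and in DKO0 5.59% and 5.97% against 8.65% and 6.05%. These shares rest on 2 to 11 peaks in a list. Trim28 and Uhrf1 also had lists in either direction. The bases under the peaks were more repetitive than the rest of the windows. In pooled TKOL, 60.1% of the 31-bp words under H3K9me3 peaks had 10 or more copies in mm9, against 26.8% outside them. For Trim28 these values were 82.8% and 27.4%, and for Uhrf1 36.0% and 28.0%. DKO0 gave 53.3% for H3K9me3, 93.7% for Trim28 and 46.3% for Uhrf1, against 26.8% to 28.0% outside. Reads from such words can align to many places, and whether that moved any peak was not tested.

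Vmn1r66 carried the strongest peaks that recurred in all lists of a mark. Its H3K9me3 folds were 12.2 and 12.6 in WT, 11.6 and 14.6 in TKOL, and 10.5 and 14.4 in DKO0. Its Trim28 folds were 13.5 and 11.5 in WT, 11.6 and 14.2 in TKOL, and 14.2 and 14.8 in DKO0. The lines overlapped in both marks, and Uhrf1 had no peak in any list. The other 5 genes of the Vmn1r66 to Vmn1r71 run had no peak in any of the 24 lists. The pooled lists gave this window highest folds of 14.9 (TKOL) and 4.09 (DKO0) for H3K9me3 and 10.1 and 19.5 for Trim28, and folds of pooled and single lists are not on the same footing.

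Vmn1r193, on chromosome 13, has recurrent sites on both sides, and the values are the highest fold at either. They were for H3K9me3 3.94 and 3.35 in WT, 2.99 and 4.47 in TKOL, and 2.61 and 3.45 in DKO0. For Trim28 the values were 6.56 and 4.35 in WT, 3.42 and 6.04 in TKOL, and 5.31 and 6.60 in DKO0. Uhrf1 was called in 1 WT list (4.19) and 1 TKOL list (3.28) and in neither DKO0 list. In the pooled lists the highest H3K9me3 fold in the window was 13.1 in TKOL and 13.9 in DKO0. Vmn1r66, Vmn1r101 and Vmn1r193 were the only genes with Trim28 in all 6 single-replicate lists.

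Vmn1r101 had highest H3K9me3 folds of 2.78 and 3.06 in WT, 3.90 and 3.56 in TKOL, and 3.81 and 3.83 in DKO0, so both WT replicates stood below the other lines, though the highest peak was not at the same place in each list. Its Trim28 folds overlapped between lines, from 3.35 to 3.95. Vmn1r2, on chromosome 4, had H3K9me3 folds of 6.75 and 7.00 in WT, 6.21 and 4.08 in TKOL, and 6.91 and 6.38 in DKO0, and no Uhrf1 peak in any list.

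The Uhrf1 calls that recurred most were those of Vmn1r47, Vmn1r48 and Vmn1r194, each in 5 of 6 lists, followed by Vmn1r3, Vmn1r60, Vmn1r149 and Vmn1r234 in 4. Vmn1r47 had folds of 4.87 and 4.23 in WT, 3.22 in the second TKOL list, and 4.38 and 3.57 in DKO0. The neighbouring Vmn1r48 has the same folds in the single-replicate lists because its window holds the same peak. Vmn1r60 had no Uhrf1 peak in WT but folds of 4.61 and 5.19 in TKOL and 4.81 and 4.53 in DKO0. Its peak lay about 3.3 kb from the gene, and TKOL and DKO0 share the J1 strain as well as the Dnmt3 mutations, so strain and genotype cannot be told apart here. The sequence under it is unique by its median word and holds 2 CpGs in the stretch printed above. Vmn1r194 had folds of 2.96 in the first WT list, 3.63 and 3.27 in TKOL, and 3.99 and 3.98 in DKO0. No base of its window lay under more than 4 of these lists, and the median 31-bp word of that stretch has 2489 copies in mm9.

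**Figure D3:**
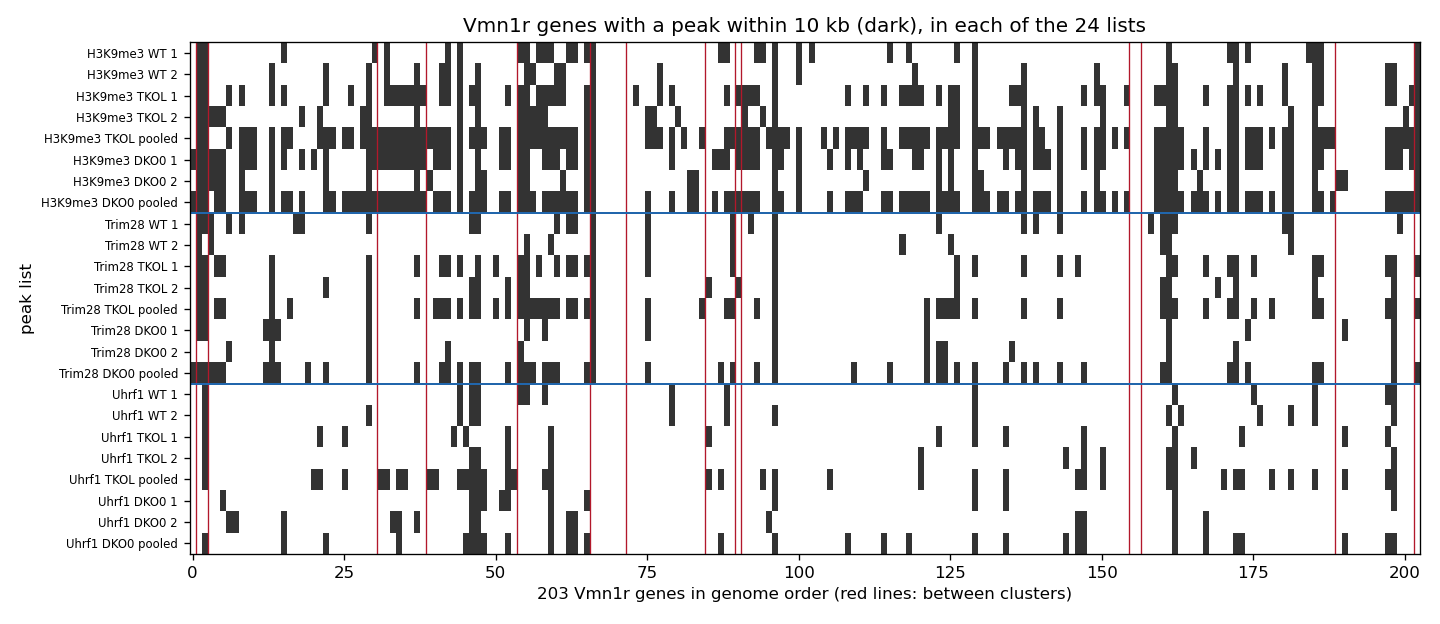
Presence (dark) or absence of a peak within 10 kb for each of the 203 Vmn1r genes, in genome order along the horizontal axis, in each of the 24 lists, with red lines between loci and blue lines between marks. The pooled H3K9me3 lists fill 120 genes (TKOL) and 119 (DKO0), and the single-replicate Uhrf1 lists fill 13 to 16.

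The genes fell into 15 loci when a gap of 500 kb separates arrays. Of these, 10 arrays of 5 or more genes held 196 of the 203, and 3 genes stood alone. The share of genes with pooled H3K9me3 ranged widely between arrays. All 8 genes of Vmn1r32 to Vmn1r39 on chromosome 6 had a peak in both lines, and 11 (TKOL) and 10 (DKO0) of the 12 genes of Vmn1r55 to Vmn1r65 on chromosome 7 did. By contrast, 1 of 6 did in the Vmn1r66 array, 5 of 13 in Vmn1r224 to Vmn1r237 on chromosome 17, and 6 and 4 of 13 in Vmn1r72 to Vmn1r84. The 2 genes Vmn1r184 and Vmn1r185, the only Vmn1r genes in a stretch of 0.365 Mb, had no peak in their windows in any list, although H3K9me3 covered 9.19% (TKOL) and 12.7% (DKO0) of that stretch.

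The other marks did not follow the same order over the arrays. Trim28 was most frequent in Vmn1r55 to Vmn1r65 (10 and 7 of 12 genes). In Vmn1r40 to Vmn1r54 on chromosome 6 it was near 8 and 6 of 15. In Vmn1r32 to Vmn1r39, where every gene had H3K9me3, 1 gene had Trim28 in each line. Uhrf1 in TKOL was most frequent in Vmn1r40 to Vmn1r54, with 9 of 15 genes. In DKO0 it was near 5 of these 15 and 4 of the 12 genes of Vmn1r55 to Vmn1r65, an equal share. It was absent in both lines from the windows of the Vmn1r66 and Vmn1r72 arrays. Vmn1r4 to Vmn1r31, the 28-gene array of chromosome 6, had H3K9me3 at 15 and 17 genes, Trim28 at 5 and 9 and Uhrf1 at 3 and 2. The 32 genes from Vmn1r188 to Vmn1r223 on chromosome 13 had them at 18 and 20, 10 and 7, and 8 and 4.

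**Figure D4:**
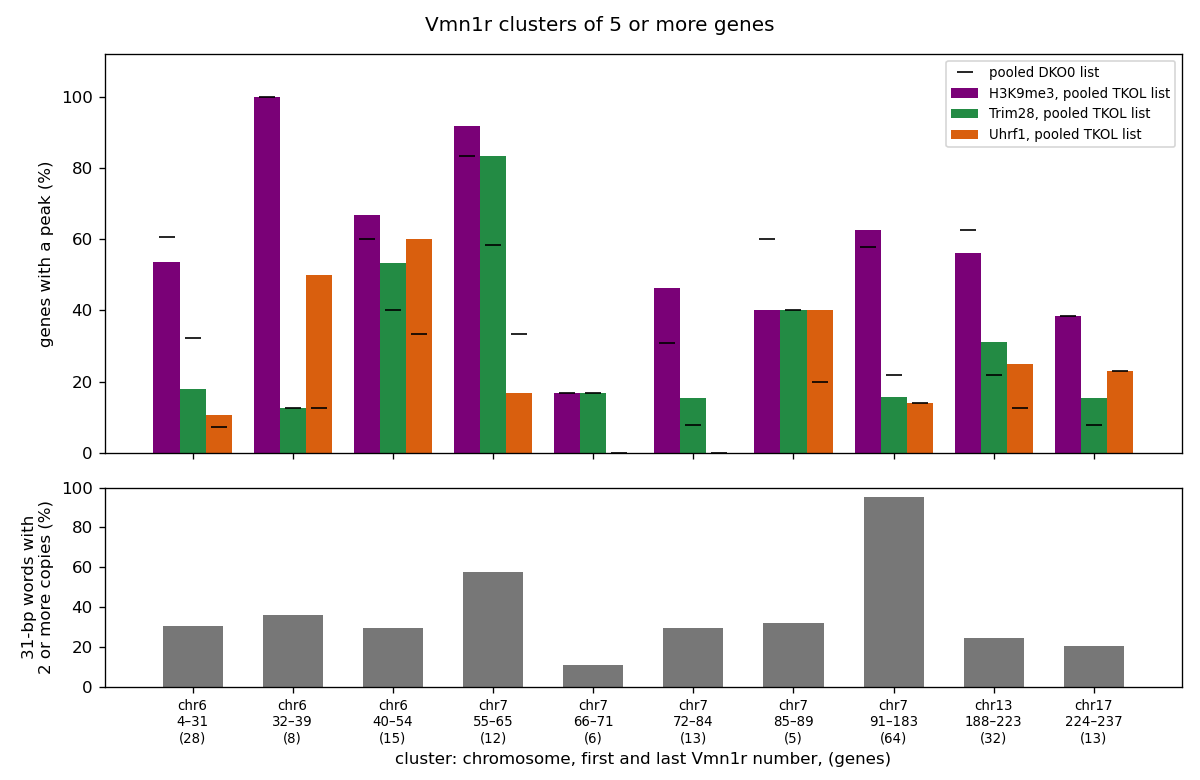
Percent of genes with a peak within 10 kb in each array of 5 or more Vmn1r genes, as bars for the pooled TKOL lists and dashes for the pooled DKO0 lists, above the median percent of 31-bp words of a window that have 2 or more copies in mm9. H3K9me3 reaches all 8 genes of Vmn1r32 to Vmn1r39 and 1 of the 6 of Vmn1r66 to Vmn1r71, and the repeat content is highest, at 95.3%, in Vmn1r91 to Vmn1r183.

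Over whole arrays, including the DNA between the genes, H3K9me3 was denser than in the genome. The 15 loci with their flanks sum to 11.5 Mb, and pooled H3K9me3 peaks covered 6.11% of them in TKOL and 7.18% in DKO0, against 2.82% and 3.21% of all chromosomes. The direction was the same in each of the 6 single-replicate lists, for example 0.496% against 0.324% in the first WT list and 1.81% against 1.05% in the first DKO0 list. Trim28 covered 1.82% and 1.44% against 1.23% and 1.08%. Uhrf1 was lower than in the genome, at 0.267% and 0.183% against 0.326% and 0.249%, and was lower in its 6 single-replicate lists too. Coverage in the arrays ran from 1.93% (Vmn1r66 array, TKOL) to 14.3% (chromosome 13 array, DKO0). These are descriptions of single regions, with no test.

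The highest H3K9me3 coverage was at loci near a chromosome start. The Vmn1r2 and Vmn1r3 locus begins 99.2 kb from the first assembled base of chromosome 4, and H3K9me3 covered 25.8% of it in pooled TKOL and 30.6% in DKO0. Vmn1r238 lies 122 kb from the first base of its chromosome and had 31.2% and 32.4%. Trim28 there covered 22.5% in pooled TKOL and 0.738% in pooled DKO0. Of the single-replicate lists only the first of TKOL held Trim28 peaks, 3 that together covered 641 bp.

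The array of Vmn1r91 to Vmn1r183 on chromosome 7 holds 64 genes in 4.17 Mb and stands apart in sequence. The median window there had 95.3% of its 31-bp words in 2 or more copies, and the next highest array, Vmn1r55 to Vmn1r65, had 57.7%. A window that shares at least 50% of its words with another Vmn1r window was found for 42 genes, all 42 in this array. Elsewhere the highest sharing was 33.0%. Pooled H3K9me3 was present at 40 (62.5%) of the 64 genes in TKOL and 37 (57.8%) in DKO0, beside 57.6% and 59.0% of the other 139 genes. Trim28 was present at 10 and 14 genes, or 15.6% and 21.9%, beside 31.7% and 28.1% of the others, and Uhrf1 at 9 and 9. In the single-replicate lists, H3K9me3 was less frequent in this array than outside it in 6 of 6 lists, for example 9.38% against 18.7% in the second WT list. It also held 17 of the 44 genes without any peak. Read alignment differs between copied and unique windows, and its part in these shares was not tested.

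Dnmt1-dependent gain of methylation was read from the positions of 1515 high-confidence differentially methylated regions (DMRs) between DKO0 and TKOL, which were called only where CpGs were dense enough to be scored. They were called at a late passage of DKO0. The sample labels give no passage for the cells used for the peak lists, but the names of the single-replicate DKO0 lists carry earlier passages. By these names, the DKO0 marks and the DMRs come from different passages. Of the 203 genes, 1 had a DMR in its window, Vmn1r137, which is 0.493% (95% Wilson interval 0.0870% to 2.74%). The share was 2.12% of all protein-coding genes, 2.21% of length-matched genes and 3.73% of matched genes without chemoreceptors. No Vmn1r body overlapped a DMR, which allows a share of up to 1.48%. With wider windows the count rose to 8 genes at 25 kb (3.94%, matched genes 5.12%), 14 at 50 kb (matched genes 9.83%) and 35 at 100 kb (matched genes 18.7%). As a share of the 203 genes it stayed below the matched share at each of these widths. The share over all genes was not computed at these widths.

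Over whole arrays DMRs were denser than over the chromosomes. The spans held 14, or 1.22 per Mb, against 0.571 per Mb over all chromosomes. They lay 7605 to 108039 bp from the nearest Vmn1r gene, with a median of 33880 bp, and were in 4 arrays: 8 in Vmn1r91 to Vmn1r183, 3 in the chromosome 13 array, 2 in Vmn1r4 to Vmn1r31 and 1 in the stretch of Vmn1r184 and Vmn1r185. Their median length was 3500 bp, against 2000 bp elsewhere. The 8 in Vmn1r91 to Vmn1r183 lie in the array with the most repeated windows, and the part of read alignment in the DMR counts was not tested.

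The marks at these 14 DMRs were set beside those of the other DMRs. In pooled TKOL, 13 had an H3K9me3 peak, 11 a Trim28 peak and 7 a Uhrf1 peak, beside 88.4%, 64.9% and 44.4% of the other DMRs. In DKO0 they were 12, 9 and 4, beside 89.7%, 57.7% and 39.9%. H3K9me3 covered 73.8% (TKOL) and 79.2% (DKO0) of their bases, and 74.7% and 78.4% of the bases of other DMRs. With 14 regions these values were not compared by a test. The 2 DMRs without H3K9me3 in DKO0 are those nearest to Vmn1r135 and Vmn1r165, 101 kb and 93.0 kb away. The farthest DMR, 108 kb from Vmn1r185, had 75.5% (TKOL) and 79.8% (DKO0) of its bases under H3K9me3.

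**Figure D5:**
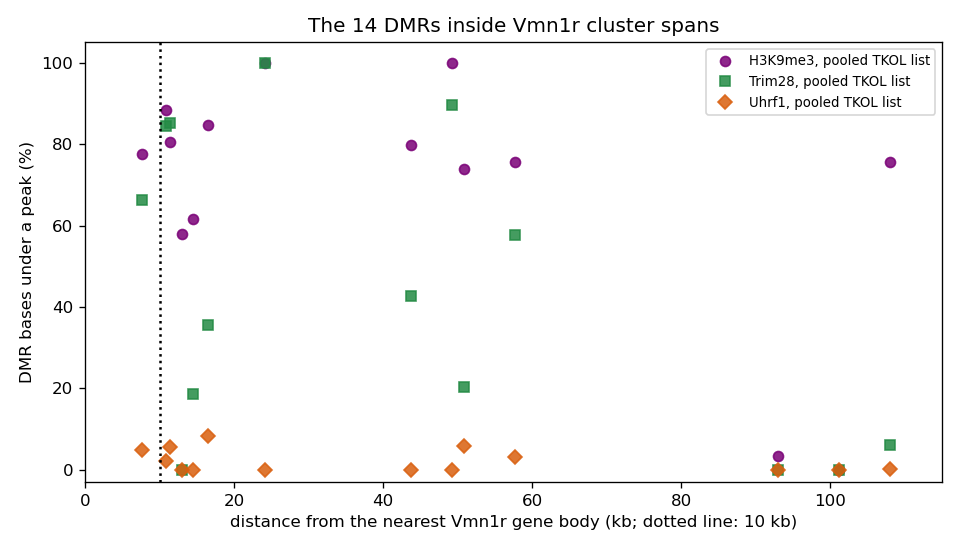
Percent of the bases of each of the 14 DMRs inside the Vmn1r arrays that lie under pooled TKOL peaks of each mark, against the distance of the DMR from the nearest Vmn1r gene body in kb, with a dotted line at 10 kb. Only the DMR of Vmn1r137, at 7.61 kb with 77.6% under H3K9me3, lies within 10 kb, and the DMR at 101 kb has no base under a peak.

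Vmn1r137 (ENSMUSG00000078404.1, chr7:22779606-22780529, plus strand) has its DMR of 9 kb 7605 bp upstream. Pooled H3K9me3 covered 77.6% of that DMR in TKOL and 78.0% in DKO0, Trim28 66.2% and 65.5%, and Uhrf1 4.83% and 6.74%. Within the 10-kb window the highest pooled H3K9me3 fold was 13.2 in TKOL and 11.2 in DKO0, and no single-replicate H3K9me3 list had a peak there. Vmn1r130 has a DMR of 6 kb at 10.8 kb, just outside its window, and pooled folds of 13.4 and 10.9. The windows of both genes share 99.8% of their 31-bp words, and the most CpG-rich 150 bases under the strongest pooled TKOL peak of Vmn1r137 match those of Vmn1r130 at 150 of 150 positions. Both sequences are printed because short reads from either would have the same sequence. They lie at chr7:22770276-22770425 (Vmn1r137) and chr7:22287478-22287627 (Vmn1r130) and hold 9 CpGs each, in capitals.

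Vmn1r137: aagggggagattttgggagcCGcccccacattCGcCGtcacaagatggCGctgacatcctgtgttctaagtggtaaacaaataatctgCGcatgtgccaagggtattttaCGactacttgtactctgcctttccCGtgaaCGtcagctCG
Vmn1r130: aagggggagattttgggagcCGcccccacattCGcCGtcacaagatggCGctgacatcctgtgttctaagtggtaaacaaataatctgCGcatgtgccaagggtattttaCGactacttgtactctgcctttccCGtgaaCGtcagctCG

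The median word of this stretch occurs 1012 times in mm9. In a second pair, Vmn1r149 and Vmn1r101, the windows share 82.6% of their words and the strongest pooled TKOL peaks of H3K9me3 had folds of 8.31 and 8.36. Their other marks differed, since Trim28 was called in 1 of 6 single-replicate lists at Vmn1r149 and in 6 at Vmn1r101, and Uhrf1 in 4 and 2. Over the 42 genes with such a copy, gene and copy both had pooled H3K9me3 in TKOL for 25, only 1 of them for 12, and neither for 5. For several genes, such as Vmn1r107 and Vmn1r165, the copy was Vmn1r112, whose long body holds a pooled TKOL peak. Pairs such as Vmn1r94 and Vmn1r142 were counted from both sides. These counts are therefore not independent and do not measure how far copies agree.

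The related receptor families differ in gene length. Vmn2r genes, the other vomeronasal receptor family, have a median body of 22431 bp, and Olfr genes, the odorant receptors, one of 960 bp. Within 10 kb of the body, H3K9me3 was near fewer Vmn1r than Vmn2r genes in 6 of 6 lists, by −19.0 ± 4.98 points (SD, n = 6, exact permutation p = 0.0312, adjusted p = 0.0625). Trim28 differed by −15.0 ± 5.33 points and Uhrf1 by −9.31 ± 3.00 points, each with the same p-values in the exact permutation test. In windows of equal length, 10 kb on either side of the middle of the gene, which were chosen after the data had been seen, the H3K9me3 difference was −0.29 ± 3.66 points (exact permutation p = 0.906). For Trim28 it was then −3.44 points and for Uhrf1 −4.29 points (exact permutation p = 0.0938 and 0.0312, adjusted p = 0.188 for both). Against Olfr genes the differences were +3.66, −2.55 and −1.24 points (exact permutation p = 0.375, 0.156 and 0.25), so none passed the test. DMRs stood within 10 kb of 4 of 125 Vmn2r genes (3.2%) and 18 of 1113 Olfr genes (1.62%).

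Genes that act with the receptors were counted in the same way, beside pooled shares over all genes of 39.3% and 39.8% for H3K9me3, 36.7% and 35.2% for Trim28 and 38% and 41.2% for Uhrf1, with no test of any list. Of 12 signalling genes of chemosensory neurons, among them Trpc2, the cation channel of vomeronasal neurons, and Gnai2, the G-protein subunit of the apical layer, pooled H3K9me3 stood near 1 in TKOL and 3 in DKO0. The gene in TKOL was Ano2, a calcium-activated chloride channel, and Gnao1 and Ano1 joined it in DKO0. Trim28 was near 5 and 4 of the 12 and Uhrf1 near 4 and 4. Of 12 transcription factors and cofactors of these neurons, 11 were in the annotation. H3K9me3 was near 2 and 3 of them (Ebf1 and Atf5 in both lines), Trim28 near 4 and 4, and Uhrf1 near 5 and 6. Of 10 writers and readers of H3K9me3, Setdb1, Suv39h2 and Cbx3 had the mark nearby in both lines. None of the genes of these 3 lists had a DMR in its window. Among the smaller receptor families, H3K9me3 was near 7 and 5 of 15 Taar genes, 9 and 10 of 35 Tas2r genes and 2 and 2 of 7 Fpr genes, and Uhrf1 near 1 and 0, 19 and 11, and 0 and 0 of them.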

How the data were processed

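ChIP-seq (H3K9me3, Trim28) and ChIPmentation (FLAG-Uhrf1) reads were aligned by the authors to mm9 with BWA, duplicates were removed with GATK and peaks called with MACS2. The 24 deposited lists report a fold enrichment over background for each peak, with p-value and q-value as −log10 (lowest −log10 q 1.00). The 6 pooled lists were called with input. Whether the single-replicate lists used input is not given in the sources used here, so folds of both kinds were not compared. DMR positions came from the study's filtered list, and its methylation values were not used. MeDIP, hairpin, WGBS and Nanopore samples were not analysed here.

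A gene counted where a peak overlapped its window by at least 1 bp. Matched genes were all other protein-coding genes within 10% of the length, averaged over the members. Differences within lists were tested by exact two-sided sign flips over 6 lists and differences between lines by exact permutation of 4 lists, with Benjamini-Hochberg adjustment over 3 marks or 6 comparisons. Arrays join genes less than 500 kb apart. Copies are counts of 31-bp words on either strand of mm9. Named genes were those with a DMR, the 5 with most lists per mark, those with all 3 marks in both pooled lists, those called in 1 line only, the ends of the 3 largest arrays and the first 5 without a peak. The full set with H3K9me3 in all 6 lists, Vmn1r184, Vmn1r185, and the genes nearest to a DMR were named after their values were seen, and genes of other families come from lists of chemosensory genes. The sequence under 1 recurrent peak is not reported here. Members, lists and tests were chosen with earlier results of these data known. The comparison with matched genes was run on simulated lists with peaks placed at random and independently in each list. Real peaks gather in repeats and recur between lists, so the simulation checks the computation and not the error rate in these data. Overlaps were checked with bedtools and copy counts by a plain search. Python 3.11.15, numpy 2.4.6, scipy 1.17.1, pandas 2.3.3, numba 0.67.0, matplotlib 3.10.9 and bedtools 2.31.1 were used.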

Additional observations from a re-analysis of the deposited data

Results flagged for a closer look

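In Trim28, the sign of the Vmn1r share minus the length-matched share differed between lines. It was 0.71 and 0.25 percentage points in the replicates of TKOL, and −4.69 and −7.78 points in those of WT. In DKO0 it was −4.61 and −4.20 points. Every TKOL list stood on one side of 0 and every WT and DKO0 list on the other, and the difference of these signed values between lines was not tested. As a log2 ratio to matched genes, the Trim28 share differed by −0.72 between DKO0 and TKOL and −0.82 between WT and TKOL, each with exact permutation p = 0.333, the smallest that 2 lists against 2 can give (adjusted p = 0.667). The TKOL values are close to 0, and the first of them comes from the list whose peak names carry another prefix.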

How the results depend on the processing

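The 16 results were computed again under 185 alternatives. No result passed the threshold to begin with, so none could lose a call, and comparisons between lines or with 1 list left out could not pass it. In 151 the value neither turned its direction nor newly passed the threshold. These count all 10 alternatives of Uhrf1 DKO0 minus TKOL, whose reported value of 0 has no direction to turn and which ran from −4.43 (25 kb) to +1.97 points (equal numbers of peaks). Windows of the middle of the gene, covered bases of Vmn2r and Olfr windows, genes on the same chromosome and members without near-identical copies were chosen after the data had been seen. Against matched genes, H3K9me3 turned to −0.66 points with the body alone, −0.0614 with −log10 q of at least 5, −0.66 with equal numbers of peaks and −0.0467 for bases covered. It passed the test at +15.8 with 25 kb and +4.22 without chemoreceptors. Trim28 turned to +2.76 with 25 kb and passed at −1.06 (body), −2.80 (equal numbers) and −0.12 (bases). Uhrf1 passed at −1.27 (body), −3.57 (25 kb), −1.92 (equal numbers), −0.0943 (bases) and −5.47 (without chemoreceptors). Against Vmn2r with the body alone, the differences of −21.5 (H3K9me3), −14.4 (Trim28) and −10.1 (Uhrf1) passed. Against Olfr, Uhrf1 passed at −0.50 (body) and turned to +0.0423 with −log10 q of at least 5, and H3K9me3 turned to −0.0150 with that limit and −0.87 with equal numbers. Between lines, H3K9me3 DKO0 minus TKOL turned to −0.25 (equal numbers), Trim28 WT minus TKOL to +0.25 (body), and Uhrf1 WT minus TKOL to −0.25 (body), −0.99 (equal numbers) and −0.21 as a log2 ratio to matched genes. The share with a DMR was 0 with the body alone, without the largest array or without near-identical windows, and 3.94% with 25 kb. The cause of these changes was not tested.

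Leaving out each replicate in turn gave, against matched genes, 1.59 to 4.56 points for H3K9me3, −4.21 to −2.51 for Trim28 and −4.01 to −2.55 for Uhrf1. Against Vmn2r it gave −20.5 to −17.9, −16.1 to −13.1 and −9.93 to −8.29, and against Olfr 1.47 to 4.68, −3.65 to −1.75 and −1.75 to −0.66. For DKO0 minus TKOL it gave −6.40 to 17.7, −11.8 to −2.96 and −0.74 to 0.74, and for WT minus TKOL −20.0 to −3.20, −8.87 to 0 and −0.49 to 0.99. The H3K9me3 difference between DKO0 and TKOL was −2.71 without the second TKOL replicate and −6.40 without the first DKO0 replicate, and Uhrf1 WT minus TKOL was −0.49 without the second TKOL replicate.

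With a replicate block, the 6 differences between lines kept their values of 5.67, −11.6, −7.39, −4.43, 0 and 0.25 points. Exact sign-flip p was 0.5 for the first 4, the smallest that 2 pairs allow, and 1 for the others. The labels tie replicate numbers to no shared batch. Replicate 1 minus replicate 2 was 1.48, 16.7 and 24.1 points in WT, TKOL and DKO0 for H3K9me3. The lists carry no read depth, so their sizes, which differ up to the limits given in the report, could not be adjusted to reads.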
